A study of Mus musculus with 6 samples.

Results

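The genes described here are 10 members of the BCL2 family, which governs whether mitochondria release the factors that start apoptosis. They were chosen by name, with earlier results of these data known, and fall into 3 roles. The pro-survival members are Bcl2, Bcl2l1 (BCL-XL) and Mcl1. The effectors are Bax and Bak1. The BH3-only members are Bcl2l11 (BIM), Bik, Bid, Bbc3 (PUMA) and Pmaip1 (NOXA). Every probe carrying 1 of these symbols in the array annotation was taken, which gave 28 of 45281 probes and 9 of the 10 genes. No probe of the annotation used here is named Bax, so Bax was not analysed.

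BAX and BAK form pores in the outer mitochondrial membrane, and the pro-survival proteins hold them in check. BH3-only proteins carry death signals by binding the pro-survival proteins, and some of them also activate the effectors directly. In B cells BIM limits the survival of naive and autoreactive cells, and MCL1 is needed for mature and activated B cells to survive.

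RNA came from splenic follicular B cells of 3 C57BL/6 mice with floxed Yy1 (yy1 f/f), selected by the surface protein CD23. Floxed means flanked by sites that Cre recombinase cuts and rejoins. In the TAT-CRE group (3 arrays) the cells received Cre protein joined to a cell-entering peptide, which removes Yy1 from whichever cells it reaches. In the mock group (3 arrays) the other cells of the same spleens, with the same floxed gene, received a mock treatment. All were then cultured for 72 hours with lipopolysaccharide (LPS), IL4, OPI and 20% serum, and the study asked what YY1 does in class switching. Each array is the bulk RNA of 1 mouse's cells, cells that kept Yy1 included, so fewer cells of a kind and less RNA per cell cannot be told apart. No array here tests TAT-CRE on cells lacking the floxed gene, so effects of the Cre protein and of Yy1 loss cannot be told apart either.

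Levels are the authors' quantile-normalised intensities, a brightness per probe on a linear scale that includes background. Differences are log2 values, TAT-CRE minus mock, from background-corrected intensities in limma, with the mouse as a block. Arrays of equal replicate number were taken to be of the same mouse. A change is called at a Benjamini-Hochberg adjusted p under 0.05 over the 19240 probes tested, those above a background threshold on at least 3 of 6 arrays. The threshold lay between 169.2 and 178.2 on the 6 arrays, and between 39.9% and 44.5% of probes exceeded it. The median SD per probe was 0.154 in TAT-CRE and 0.234 in mock, and precision throughout is limited by having 3 arrays in a group. The Yy1 probe read 153.2, 140.4 and 133.8 on the TAT-CRE arrays, against 455.0, 408.9 and 439.2 on the mock arrays. All 3 TAT-CRE arrays were at background, at least 2.49-fold below mock on the deposited intensities. On the background-corrected scale Yy1 was called lower (limma adjusted p = 1.8e-07), the direction the labels give.

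Markers of the selected cells were bright in both groups. The brightest probe of Fcer2a, the gene of CD23, read between 7561.0 and 8585.2 in TAT-CRE and between 7792.8 and 11192.4 in mock, and dimmer probes of Fcer2a and Cd74 were called lower in TAT-CRE. Of 8 B cell marker genes with a probe, 7 were above background, and the exception was Cr2. At their brightest probes these summed to between 99750 and 111301 in TAT-CRE and between 90405 and 114426 in mock, with 1 gene lower (Blnk) and none higher. Of 9 T cell genes with a probe, 3 passed the filter and none of these was called, summing to between 596 and 650 in TAT-CRE and between 593 and 611 in mock. Cd3d, Cd3e, Cd3g and Cd8a were not above background on any array. Of 5 natural killer cell genes with a probe, only Prf1 passed. It read between 7622.5 and 8735.2 at 1 probe in TAT-CRE, against between 2287.8 and 3934.4 in mock, while Ncr1, Klrb1c, Klrd1 and a second Prf1 probe were not above background. Among 6 dendritic cell genes, 2 passed, summing to between 1424 and 1690 in TAT-CRE and between 948 and 1331 in mock, and Siglech rose by 1.16 at 1 of 3 probes, the other two being not above background. Of 7 monocyte and macrophage, 6 neutrophil and 4 erythroid genes with a probe, 2 of each passed and none was called. Their sums lay between 2075 and 2396, 333 and 414, and 344 and 458 in TAT-CRE, against 1800 and 2952, 394 and 430, and 350 and 383 in mock. Of 6 plasma cell genes, 4 passed and Jchain was the one called, higher, the sums lying between 19142 and 20988 in TAT-CRE and between 18684 and 19609 in mock. The part that other cells take in the values below was not tested.

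Members of opposed function rose side by side. The BH3-only gene Bcl2l11 about doubled its signal at its brighter probes, and the pro-survival gene Mcl1 rose 1.71-fold. Of the BH3-only genes, Bik fell at its single probe and Pmaip1 at 1 of 2 tested probes. Bcl2 was called higher at 1 of its 6 tested probes, and Bcl2l1, Bak1, Bid and Bbc3 did not pass the threshold at any probe. Of the 28 probes 21 passed the filter and 7 did not. Of the 21, 4 were higher and 2 lower, or 28.6%, while 13.7% of all probes tested were called (6.55% higher and 7.14% lower). Bik, among the lower, passed the filter through mock alone. Because the members were chosen with earlier results known, these shares are a description and were not tested. Probes of 1 gene read the same transcripts, so these counts are not of independent genes. The median difference over the 21 was 0.01, the same as over all probes tested.

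**Figure D1:**
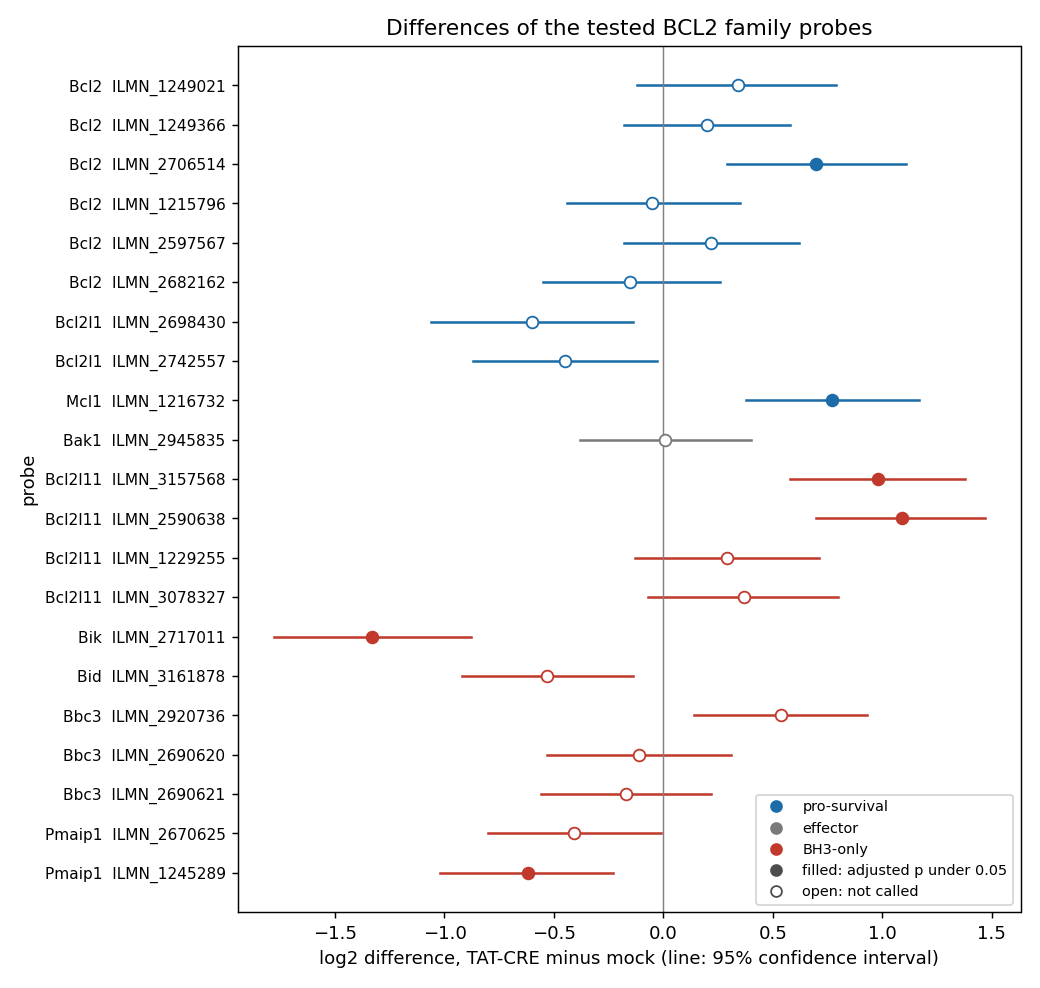
Log2 difference, TAT-CRE minus mock (horizontal axis), of the 21 tested probes, with 95% confidence intervals from limma as lines and role as colour. Filled points, called at an adjusted p under 0.05, are 2 pro-survival probes above 0 and 2 above and 2 below 0 among the BH3-only probes.

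Among the pro-survival members, Mcl1 gave the clearest difference. MCL1 is a short-lived protein that binds BIM and BAK. Its single probe read 12067.3, 12194.9 and 9460.3 in TAT-CRE cells of mice 1, 2 and 3, against 6362.7, 6539.4 and 6824.3 in mock cells. Every TAT-CRE array lay above every mock array, and mouse 3 had the smallest gap. The difference was 0.77 (SE 0.19, 95% confidence interval 0.38 to 1.17, limma adjusted p = 0.0106), made up of 0.93, 0.91 and 0.48 in the 3 mice. Dropping array TAT-CRE 1 or TAT-CRE 2, in a fit without the block, ended the call (adjusted p = 0.0591 and 0.063).

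The founding member Bcl2 was read by 9 probes, of which 6 passed the filter, and these did not move together. Only ILMN_2706514 was called, reading 496.4, 476.3 and 594.5 in TAT-CRE against 292.1, 406.8 and 383.5 in mock. Its groups did not overlap, and the difference was 0.70 (SE 0.19, interval 0.29 to 1.11, limma adjusted p = 0.0235). The brightest Bcl2 probe, ILMN_1249021, read 1477.1, 1564.9 and 1660.9 in TAT-CRE, against 1799.4, 884.2 and 1271.1 in mock. Here the mock arrays spread on both sides of the TAT-CRE arrays, and mouse 1 went down while mice 2 and 3 went up (difference 0.34, interval -0.12 to 0.79, limma adjusted p = 0.343). The other 4 tested probes differed by between -0.15 and 0.22, the lowest being the 1 probe annotated to the transcript NM_177410 in place of NM_009741. Among them, ILMN_1249366 was higher in TAT-CRE in all 3 mice without overlap, but was not called (0.20, limma adjusted p = 0.523). The call at ILMN_2706514 was lost when mouse 1 or mouse 3 was left out (adjusted p = 0.146 and 0.129). Fits without the block also lost it on leaving out any single array other than mock 2 (0.0699 to 0.172). The call for Bcl2 therefore rests on 1 of 6 tested probes. The other 3 probes were above background on at most 1 array.

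Bcl2l1, whose main product BCL-XL protects B cells in culture and during maturation, pointed the other way without passing. Its brightest probe, ILMN_2698430, read 262.3, 335.6 and 288.3 in TAT-CRE, against 477.4, 327.2 and 401.1 in mock. TAT-CRE was lower in mice 1 and 3, with differences of -1.18 and -0.66, and about level in mouse 2, at 0.05. The difference was -0.60 (SE 0.22, interval -1.06 to -0.14, limma adjusted p = 0.0805). Without mouse 2 it was -0.92 and passed (adjusted p = 0.00156), and it also passed without mock 2 alone in a fit without the block (-0.78, adjusted p = 0.0349) and with array weights (-0.64, 0.0315). The second tested probe differed by -0.45 (limma adjusted p = 0.154) and was above background on 1 TAT-CRE array and 3 mock arrays. The remaining pair of Bcl2l1 probes was at background, each above it on 1 array.

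The effector Bak1, which builds the pore once released from MCL1 and BCL-XL, was dim and level. It read 302.2, 337.3 and 222.5 in TAT-CRE, against 272.0, 329.7 and 245.0 in mock. The groups overlapped in full, with mouse 2 highest and mouse 3 lowest in both. The difference was 0.01 (SE 0.19, limma adjusted p = 0.976), and its interval, -0.38 to 0.40, leaves room for a change of up to that size either way.

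**Figure D2:**
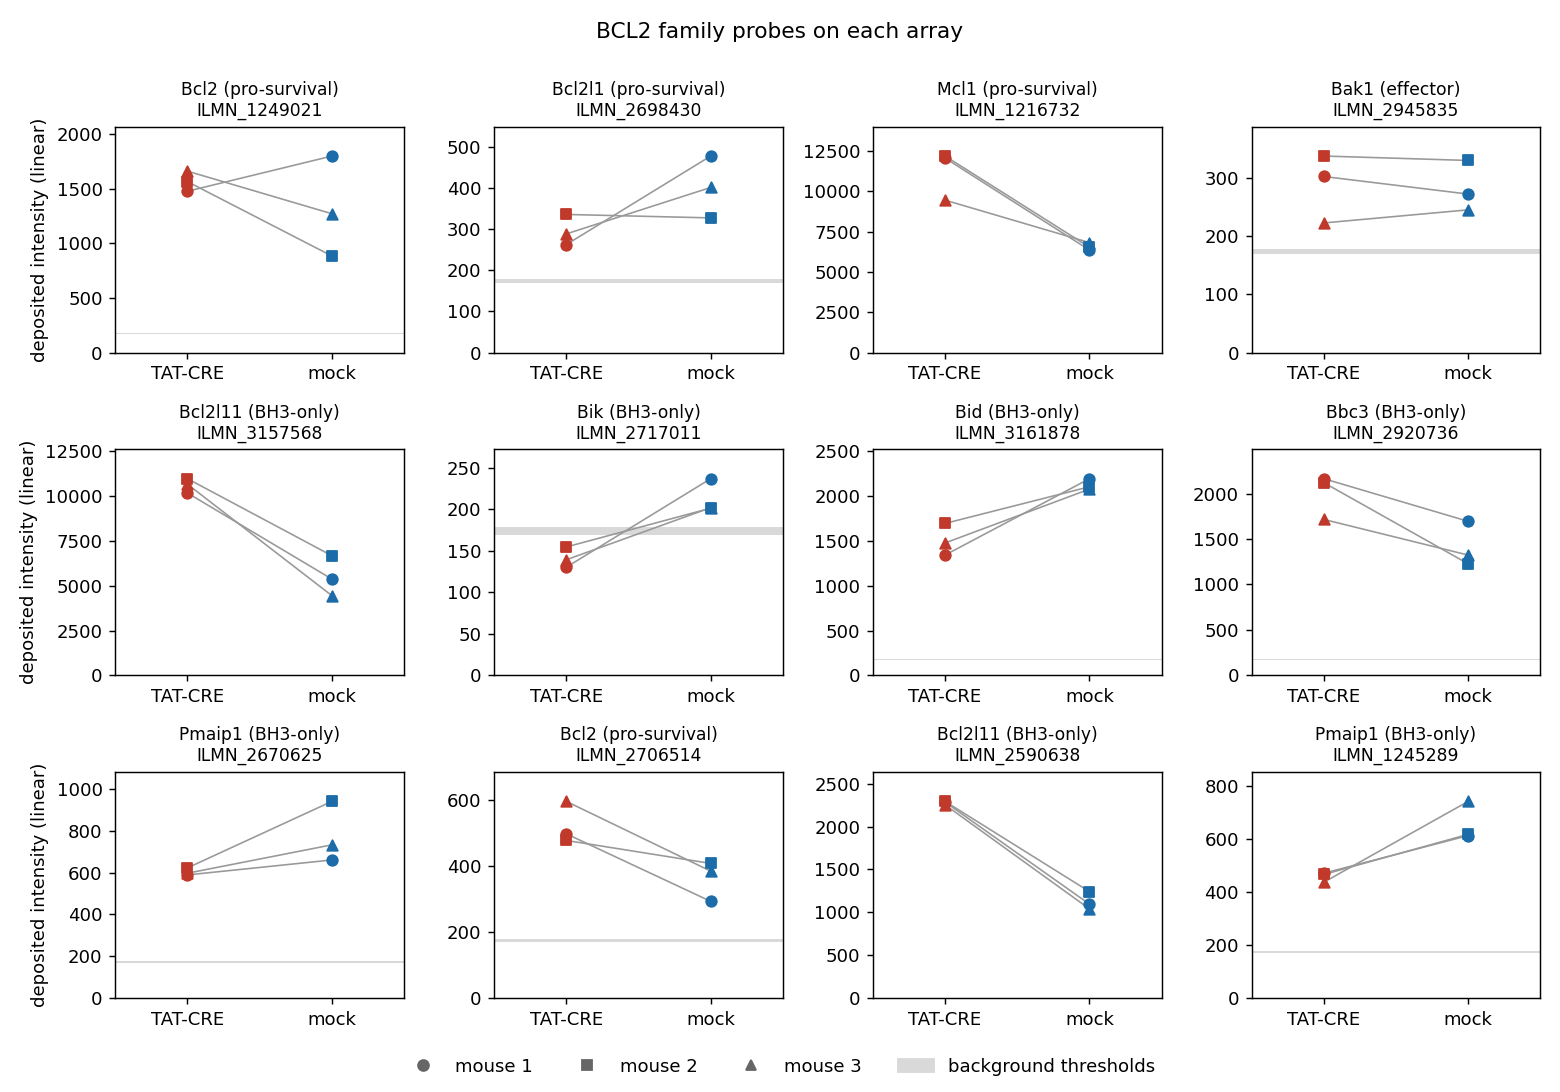
Deposited intensity (vertical axis, linear, from 0) on the TAT-CRE and mock arrays for the brightest tested probe of each measured member, followed by the other called probes. Lines join the arrays of 1 mouse and the grey band spans the background thresholds of the 6 arrays, 169.2 to 178.2. The Bcl2l11 and Mcl1 panels show every TAT-CRE point above every mock point, and the Bik panel shows the TAT-CRE points under the band.

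Bcl2l11 had the largest rise of the family. Its product BIM binds every pro-survival BCL2 protein. Probe ILMN_2590638 read 2286.0, 2294.1 and 2254.1 in TAT-CRE, against 1094.6, 1240.5 and 1038.9 in mock. The TAT-CRE arrays were nearly equal, averaging 2278 ± 21.1, and lay far above the mock arrays at 1125 ± 104 (SD, n = 3 each). The difference was 1.09, or 2.12-fold (SE 0.18, interval 0.70 to 1.47, limma adjusted p = 0.000726), and 1.13, 0.94 and 1.19 in the 3 mice. The brightest probe, ILMN_3157568, read 10181.1, 10981.2 and 10670.8 in TAT-CRE, against 5373.2, 6677.6 and 4446.9 in mock. It too showed no overlap and differed by 0.98, or 1.97-fold (SE 0.19, interval 0.58 to 1.38, limma adjusted p = 0.00219). Both calls held in each alternative that tested the probe, with differences between 1.02 and 1.17 at the first probe and between 0.83 and 1.13 at the second.

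The dimmer Bcl2l11 probes gave smaller differences. ILMN_1229255 read 509.4, 455.9 and 452.0 in TAT-CRE, against 357.8, 501.3 and 369.1 in mock (difference 0.29, interval -0.13 to 0.71, limma adjusted p = 0.381). ILMN_3078327 read 216.6, 199.0 and 225.9 in TAT-CRE, against 172.8, 215.1 and 176.5 in mock (difference 0.37, interval -0.07 to 0.80, limma adjusted p = 0.269). It lay near background, above it on 3 TAT-CRE and 2 mock arrays. At both probes the groups overlapped because mock 2 was the highest mock array, and mouse 2 alone was lower in TAT-CRE, with differences of -0.17 and -0.20. Without mouse 2 the second of them rose by 0.65 and passed (adjusted p = 0.0409). Both are annotated to the transcript NM_207680, as is the brightest probe, while ILMN_2590638 is annotated to NM_009754. The difference between probes was not tested, and the exons they read are not stated in the labels or tables used.

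**Figure D3:**
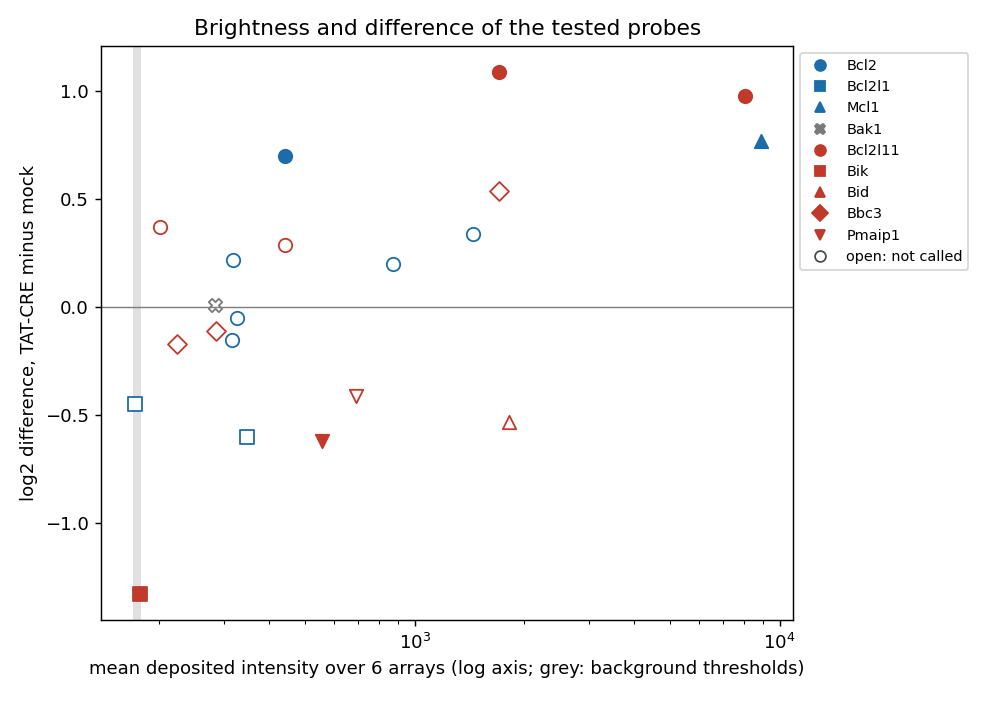
Mean deposited intensity over the 6 arrays (horizontal, log axis) and log2 difference, TAT-CRE minus mock (vertical), of the 21 tested probes, with marker and colour for gene and role and open markers for probes not called. The 2 bright Bcl2l11 probes and Mcl1 sit at the upper right, and Bik lies at the background thresholds (grey band).

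The start regions of Bcl2l11 and Mcl1 are shown because these genes rose at their brightest probes. The sequences are the 250 bases upstream of each start site in RefSeq, build GRCm38.p6, both genes on the plus strand, written 5′ to 3′. Bcl2l11 has 2 annotated starts, at chr2:128125788-128126037 and chr2:128127325-128127574, and the Mcl1 window is chr3:95658471-95658720. Capitals mark GTAAACA, the motif of forkhead factors such as FOXO proteins, of which Bcl2l11 is a known target. Motifs were searched on both strands.
Bcl2l11, first start: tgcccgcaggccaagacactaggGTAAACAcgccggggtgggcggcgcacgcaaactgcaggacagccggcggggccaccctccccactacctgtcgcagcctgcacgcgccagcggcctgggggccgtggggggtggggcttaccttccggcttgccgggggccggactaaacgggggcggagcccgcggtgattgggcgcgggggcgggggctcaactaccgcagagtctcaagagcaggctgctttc
Bcl2l11, second start: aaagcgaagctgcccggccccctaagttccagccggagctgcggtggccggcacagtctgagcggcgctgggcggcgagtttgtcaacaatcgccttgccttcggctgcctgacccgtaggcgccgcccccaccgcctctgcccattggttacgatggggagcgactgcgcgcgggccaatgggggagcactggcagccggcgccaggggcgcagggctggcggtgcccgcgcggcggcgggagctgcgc
Mcl1: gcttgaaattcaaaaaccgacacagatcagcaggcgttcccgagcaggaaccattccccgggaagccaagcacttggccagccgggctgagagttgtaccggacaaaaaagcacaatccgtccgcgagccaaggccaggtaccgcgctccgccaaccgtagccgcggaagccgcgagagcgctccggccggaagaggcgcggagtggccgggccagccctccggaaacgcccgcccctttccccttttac

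The GTAAACA match of Bcl2l11 starts 227 bases upstream of the first start, on the plus strand. The motif was found in 2 of 13 windows of 8 member genes, the other at 1 start of Bbc3, and in 3.17% of 32851 such windows of all genes. The core letters of the YY1 motif, ATGGCG, were in none of the 13 windows and in 5.73% of all windows. Bik and Pmaip1 had no window, some genes had several, and 13 windows are too few for a comparison of shares. These are matches of letters in short windows upstream of the starts. Bases downstream of the starts were not searched, and binding was not measured.

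Bik fell to background in TAT-CRE cells. BIK is a BH3-only protein that sits mainly on the endoplasmic reticulum. Its single probe read 130.1, 154.5 and 139.1 in TAT-CRE, against 236.7, 201.2 and 201.8 in mock. All 3 mock arrays were above background and no TAT-CRE array was, so the probe passed the filter through mock alone. Bik was at least 1.22-fold lower in TAT-CRE on the deposited intensities. The fitted difference of -1.33 (SE 0.21, limma adjusted p = 0.000499) depends on the background correction. On uncorrected intensities it was -0.59 (limma adjusted p = 0.0164). On the corrected scale the differences in the 3 mice were -1.95, -0.81 and -1.24, and Bik was called in every alternative that tested it.

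Pmaip1, whose product NOXA binds MCL1 and promotes its breakdown, fell at 1 of 2 tested probes. ILMN_1245289 read 471.8, 467.1 and 437.8 in TAT-CRE, against 614.5, 619.1 and 743.8 in mock. The groups did not overlap, mock 3 being the highest, and the difference was -0.62 (SE 0.19, interval -1.02 to -0.23, limma adjusted p = 0.0344). The other, ILMN_2670625, read 589.2, 622.9 and 597.4 in TAT-CRE, against 660.7, 941.4 and 733.2 in mock, again without overlap. It differed by -0.41 (interval -0.80 to -0.01) and did not pass (limma adjusted p = 0.169). The call at the first probe was lost without mouse 3 (adjusted p = 0.324), and in fits without the block when TAT-CRE 1, TAT-CRE 2, TAT-CRE 3 or mock 3 was left out (0.0815 to 0.122). The remaining probe was at background on all arrays.

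Bid and Bbc3 narrowly missed the threshold at their brightest probes, with differences on opposite sides of 0. BID links death receptors to mitochondria once caspase-8 has cut it. Its brighter probe read 1341.6, 1694.4 and 1476.4 in TAT-CRE, against 2193.8, 2103.8 and 2077.9 in mock. TAT-CRE was lower in all 3 mice with no overlap (-0.75, -0.33 and -0.52), but the difference of -0.53 (SE 0.18, interval -0.92 to -0.14) did not pass (limma adjusted p = 0.0653). The dimmer Bid probe read 167.1, 157.0 and 157.1 in TAT-CRE, against 176.7, 169.5 and 186.7 in mock, above background on 2 mock arrays and no TAT-CRE array, and was not tested.

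Bbc3 encodes PUMA, a potent BH3-only protein and a classical p53 target. Its brightest probe read 2163.9, 2120.5 and 1715.7 in TAT-CRE, against 1694.4, 1226.5 and 1323.0 in mock. Every TAT-CRE array exceeded every mock array, narrowly for TAT-CRE 3 against mock 1, and the difference was 0.54 (SE 0.19, interval 0.14 to 0.93, limma adjusted p = 0.0672). The dim Bbc3 probes differed by -0.11 and -0.17 (limma adjusted p = 0.778 and 0.593), and their groups overlapped. On uncorrected intensities the brighter Bid and brightest Bbc3 probes passed (adjusted p = 0.0277 and 0.0322), as they did with 1 probe per gene (0.0473 and 0.0487), normexp with offset 50 (0.0349 and 0.0367) or the trend and robust variance (0.0401 and 0.0416). Bid also passed with array weights (0.0409) or without mouse 2 (0.0468), and Bbc3 without mock 1 in a fit without the block (0.0333).

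By role, the pro-survival genes had 2 of 9 tested probes higher and none lower, with 2 higher and 2 lower at an unadjusted p under 0.05. The BH3-only genes had 2 of 11 higher and 2 lower, with 3 and 4 at an unadjusted p under 0.05. Of all probes tested, 13.2% were higher and 14.0% lower at that unadjusted threshold, and 6.55% were called higher and 7.14% lower after adjustment. The pro-survival median was 0.20, with 5 probes above 0 and 4 below, and 6 of the 9 probes belong to Bcl2. The BH3-only median was -0.11, with 5 above and 6 below, and neither role was tested as a group. In 10 of the 21 tested probes the 2 groups did not overlap, 6 with TAT-CRE above and 4 with TAT-CRE below. Among all probes tested 31.8% had no overlap, and 16.4% had TAT-CRE above and 15.5% had it below.

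The probes whose values ran most nearly in parallel with the leading members were found by Pearson's r over the 6 arrays, as a description. For Bcl2l11 (ILMN_2590638) they belonged to BC025920 (r = 0.9992), Gtdc1 (0.9987) and H4c18 (0.998). For Bik they belonged to Mettl3 (0.9964), Mib2 (0.9962) and Adpgk (0.9948). Bik was at background on 3 of these 6 arrays, and the Mib2 and Adpgk probes were not called (limma adjusted p = 0.133 and 0.177).

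Other BCL2 family genes moved in both camps too. Of 16 listed, 15 had a probe and 9 passed the filter, and at the brightest probe 3 rose and none fell. Among all genes at their brightest probe 7.44% rose and 7.52% fell, 15.0% in all. Bcl2l2 (BCL-W, pro-survival) read 1715.7, 1759.3 and 1704.6 in TAT-CRE, against 1158.1, 1157.3 and 997.2 in mock, a clear separation of 0.70 (SE 0.18, limma adjusted p = 0.0165), and its second tested probe passed too. Bad, a BH3-only gene, read 953.1, 911.4 and 898.9 in TAT-CRE, against 617.4, 651.4 and 668.9 in mock (0.58, SE 0.18, limma adjusted p = 0.0411). Bnip3l, which marks mitochondria for removal by autophagy, rose by 0.59 (SE 0.19, limma adjusted p = 0.0448). None of these 3 calls held without mouse 3 (adjusted p = 0.15, 0.146 and 0.232), and those of Bad and Bnip3l were also lost without mouse 2 (0.0647 and 0.161) and that of Bad without mouse 1 (0.168). In fits without the block, leaving out any single array ended the Bad call except mock 2 (0.0526 to 0.112), the Bnip3l call except mock 1 (0.0994 to 0.143) and the Bcl2l2 call except mock 1 and mock 2 (0.0524 to 0.0659). Bcl2a1b, of the pro-survival A1 cluster, was bright and differed by -0.41 (limma adjusted p = 0.169), with mock 1 at 19252.5 standing above the rest, and A1 genes are near-identical copies whose probes may not tell them apart. The list's median was -0.18.

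Downstream of mitochondria, Apaf1, the scaffold on which caspase-9 is activated, rose at all 3 of its probes. The brightest read 3398.3, 3117.3 and 2868.3 in TAT-CRE, against 1868.2, 1926.7 and 2136.7 in mock (0.69, SE 0.19, limma adjusted p = 0.02). Casp6, an executioner caspase, rose at both of its probes, by 0.78 at the brighter (SE 0.20, limma adjusted p = 0.0152). The Apaf1 call at that probe was lost without mouse 1 (adjusted p = 0.106), TAT-CRE 1 (0.0824) or TAT-CRE 2 (0.0674), and the Casp6 call without mouse 2 (0.082), TAT-CRE 1, TAT-CRE 2, mock 2 or mock 3 (0.0527 to 0.11), single arrays being left out of fits without the block. Of 13 apoptosome and caspase genes tested, these 2 rose at the brightest probe, none fell there and the median was -0.04. Of all genes, 15% were called at the brightest probe. Dimmer probes of 2 genes, picked out after their values were seen, were called lower. They belong to Htra2, a mitochondrial protease (-0.69, limma adjusted p = 0.0268), and Dffa, the inhibitor of an apoptotic nuclease (-0.58, limma adjusted p = 0.0427), whose brightest probes differed by -0.31 and -0.35 (0.343 and 0.278). Vdac2, a mitochondrial channel that binds BAK, and Aifm1, a mitochondrial flavoprotein, differed by -0.41 and 0.41 (limma adjusted p = 0.16 and 0.212).

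Among 8 inhibitors of apoptosis, 1 rose, none fell and the median was 0.20, where 7.44% of all genes rose and 7.52% fell. Naip5, known better as a sensor of bacterial flagellin, rose by 0.77 (SE 0.18, limma adjusted p = 0.00901), a call lost without mouse 3 (adjusted p = 0.0831) or, in a fit without the block, without TAT-CRE 2 (0.0708). Birc3, Cflar and Birc5, which restrain caspases or, for Birc5, mainly serve cell division, differed by 0.44, -0.37 and -0.36 (limma adjusted p = 0.158, 0.209 and 0.237). Of 8 death receptor and adaptor genes tested, Tnfrsf10b fell by 0.86 at its brightest probe (SE 0.20, limma adjusted p = 0.008) and none rose, with a median of -0.21. That fall was seen at 1 of 4 tested Tnfrsf10b probes and its call was lost without mouse 1 (adjusted p = 0.0702) or, in fits without the block, without TAT-CRE 1, TAT-CRE 3 or mock 1 (0.0615 to 0.118). The death receptor gene Fas differed by -0.46, its adaptor Fadd by 0.39 and the adaptor Tradd by -0.37 (limma adjusted p = 0.113, 0.182 and 0.211), while 1 dimmer probe of Fas was called lower and 1 of Fadd higher.

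Of 11 tested genes for transcription factors known to act on BCL2 family genes, 3 fell and none rose at the brightest probe. Of all genes 7.52% fell and 7.44% rose there. The median of the 11 was -0.14. Stat5a, which induces Bcl2l1 and Mcl1 downstream of cytokines, read 869.8, 808.8 and 950.6 in TAT-CRE, against 2686.3, 2632.4 and 1940.8 in mock. The difference was -1.56 (SE 0.20, limma adjusted p = 5.51e-05), with no overlap, and its other probe was called lower too. Atf4, the stress factor that can induce Bbc3 and Pmaip1, read 6024.7, 7508.7 and 6410.3 in TAT-CRE, against 19183.2, 11677.8 and 14411.5 in mock (-1.17, SE 0.21, limma adjusted p = 0.00117). These 2 calls held in every alternative run. Myc, which raises BIM in several cell types, fell by 0.98 (SE 0.22, limma adjusted p = 0.00674), and its call was lost without mouse 2 (adjusted p = 0.0562) or, in a fit without the block, without TAT-CRE 2 (0.0678). Ddit3 (CHOP), which acts with ATF4, differed by -0.53 at its brightest probe (limma adjusted p = 0.0755), and a dimmer probe was called lower. Foxo1, a forkhead factor gene picked out after its values were seen, went opposite ways at its probes. The dimmer one read 285.7, 306.5 and 251.5 in TAT-CRE, against 183.8, 203.9 and 224.9 in mock, and was called higher (0.76, SE 0.20, limma adjusted p = 0.0168). The brightest read 823.9, 867.5 and 834.6 in TAT-CRE, against 1099.2, 928.6 and 1124.5 in mock, and was not called (-0.35, limma adjusted p = 0.238).

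None of 8 genes acting on the stability or location of MCL1, BIM and NOXA proteins was called at its brightest probe in limma. At an unadjusted p under 0.05, 1 was higher and 1 lower, where 14.6% of all genes were higher and 14.5% lower at their brightest probe, and the median was -0.03. Gsk3b, the kinase that marks MCL1 for destruction, differed by 0.50 (limma adjusted p = 0.0775), with a dimmer probe called higher. The ubiquitin ligase subunit Btrc differed by -0.48, the kinase gene Mapk8 by 0.38 and the MCL1 ligase Huwe1 by 0.32 (limma adjusted p = 0.086, 0.196 and 0.275).

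**Figure D4:**
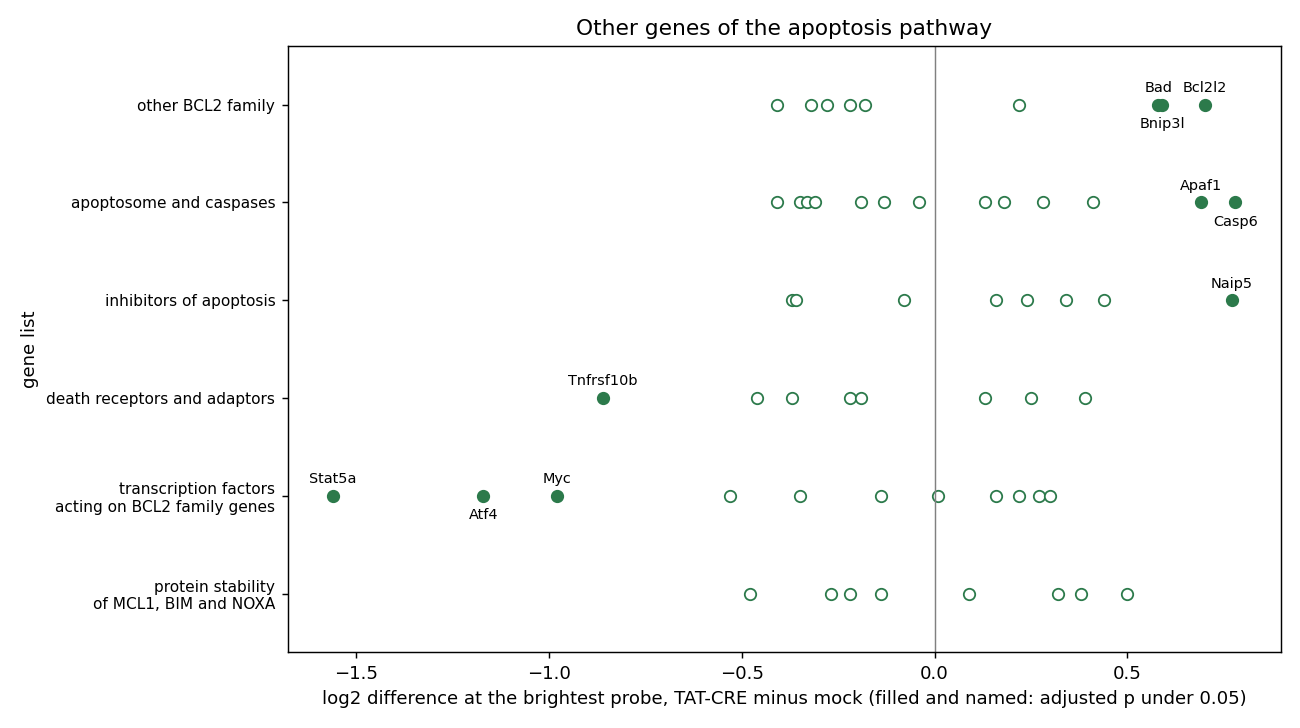
Log2 difference, TAT-CRE minus mock (horizontal axis), at the brightest tested probe of each gene in 6 lists of the apoptosis pathway (rows). Filled, named points passed an adjusted p of 0.05, and they are 6 genes above 0 in the upper 3 lists and 4 genes below 0 in the next 2.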

How the data were processed

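The deposited table holds the authors' linear intensity for 45281 probes on 6 Illumina arrays, made from biotin-labelled RNA copies per the labels' protocols. The submitters' processing notes list GenomeStudio 1.8. Sorted columns differ by at most 2.1, so the intensities had been quantile normalised before deposit. A second table's 12 columns match no sample's labels and were not used.

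Intensities received normexp background correction (offset 16), quantile normalisation and log2 in limma 3.58.1 (R 4.3.3). Background was the 95th percentile, per array, of 1504 olfactory and vomeronasal receptor probes. Each probe was tested on its own by lmFit and eBayes with the mouse as a block, two-sided. The labels' design text says that each spleen was divided between treatments. Arrays were paired by replicate number, and that equal numbers mean the same mouse is assumed. Deviations from the group means correlated within mice at 0.119, 0.0255 and 0.0539. A probe at background throughout 1 group gets a lower bound on deposited intensities, which background brightness makes smaller.

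All members are described at every probe. Of each pathway list, called genes and up to 4 genes of smallest p were named, at the brightest probe. Members and lists were chosen with earlier results of these data known. The procedure was tested on simulated data. Promoters were matched by symbol to RefSeq windows, and figures drawn with matplotlib 3.10.9.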

Additional observations from a re-analysis of the deposited data

How the results depend on the processing

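The alternatives covered background correction, normalisation, filter, probes per gene, array weights, variance model, the mouse block, and each mouse and each array left out. A further one, probes with 1 named gene only, was chosen after seeing the data. Of 404 values for the 21 member probes, 358 kept their direction and their side of the threshold, 17 lost a call, 15 gained one and 14 turned in sign, none of these a called probe. Without the replicate block, 4 member probes were higher, 2 lower and 2417 of all probes called, and no call changed among the member probes or the brightest probes of the 10 called pathway genes, the ones refitted. With no filter on dim probes, 2 member probes were higher, both of Bcl2l11, 1 was lower and 1082 probes were called. More probes were tested there and the variance model was refitted with the dim ones included, and the share of each was not tested. With probes above background on all 6 arrays 1 member probe was lower, since Bik was not tested. With array weights 4 member probes were lower, and the cause was not tested. Leaving out mice or arrays gave between 2 and 5 member probes higher, between 1 and 4 lower and between 1165 and 2597 probes called (1652 without mouse 3, and 1241, 1165 and 1254 without TAT-CRE 1, 2 and 3). The mouse and array calls lost are named with each result. Differences near 0 turned sign. Bak1 gave -0.05 with array weights, between -0.09 and 0.13 over the mice left out, and -0.01, -0.13, -0.06 and -0.18 without mock 1, mock 3, TAT-CRE 1 and TAT-CRE 2. The Bcl2 probe ILMN_1215796 gave between -0.16 and 0.1 over the mice, 0.05 without mock 3 and 0.01 without TAT-CRE 3. The Bcl2 probe ILMN_2682162 gave between -0.33 and 0.03 over the mice and 0.03 without mock 1, and the Bbc3 probe ILMN_2690620 between -0.32 and 0.12 and 0.03. Without the filter the calls of Mcl1, the Bcl2 probe ILMN_2706514 and the Pmaip1 probe ILMN_1245289 were lost. So were those of the called pathway genes other than Stat5a and Atf4, at their brightest probes. Signals near background limit Bik, the dimmer Bid probe, the dim Bcl2l1 probes and the Bcl2l11 probe ILMN_3078327.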
